A study of Mus musculus with 2 samples.

Results

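The 6 genes described here encode growth factors and a receptor that carry signals between intestinal stroma and epithelium. They are the EGF-family ligands Nrg1 (neuregulin 1), Ereg (epiregulin), Areg (amphiregulin) and Hbegf (heparin-binding EGF-like growth factor), the receptor Egfr, and Hgf (hepatocyte growth factor). They were chosen by symbol, with no measured value in the rule, and are 6 of the 28692 genes counted in each library. Levels are given as CPM, the UMIs of a gene in a class of cells per 1000000 UMIs of that class. All 6 genes reached 10 CPM in at least 1 class, as did 11403 genes in all.

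EGF-family ligands are made as membrane-bound precursors and are released by metalloproteases of the ADAM family. Amphiregulin, epiregulin and HB-EGF bind EGFR, epiregulin and HB-EGF also bind ERBB4, and neuregulin 1 binds ERBB3 and ERBB4, with ERBB2 as the shared partner. HGF is made mainly by mesenchymal cells and binds MET, which is typical of epithelial cells. In the gut these factors are known for their effects on crypt proliferation and on repair, and subepithelial fibroblasts (FB) are a known source of neuregulin 1.

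Single-cell RNA-seq was done on mesenchymal stromal cells (MSC) from intestine transplanted as an embryonic rudiment, with 1 library per group and no replicates. In both groups, EYFP-expressing embryonic intestine on a C57BL/6 background was grafted beneath the kidney capsule of wild-type adults, and the grafts were taken after 4 weeks. The donor EYFP mice had been bred from R26R.EYFP mice, which carry the reporter at the Rosa26 locus, and a Cre line. The LI graft library came from large intestine, labelled as colonic lamina propria, and the SI graft library from small intestine. Live YFP+ Itgb1+ cells were sorted after exclusion of cells bearing markers of blood, lymphoid stroma, endothelium, epithelium and glia, so the sort kept donor cells and removed most host cells. The colonic grafts were pooled before sequencing. Each library held cells of both sexes, so each came from more than 1 embryo if both sexes are donor cells, which was not tested.

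The LI library held 11568 barcodes and 63348069 UMIs and the SI library 9631 barcodes and 54918006 UMIs, and 26 barcode sequences occurred in both. Cells with fewer than 500 genes or over 10% mitochondrial UMIs were removed, which left 9873 LI and 7910 SI cells with a median of 5288 and 5682 UMIs. Cells with Xist and no Y-linked UMI (female) made up 80.7% of the LI and 55.0% of the SI cells, and cells with the reverse pattern (male) 9.0% and 24.3%. Classes were gated on marker lists for PDGFRAhi FB (475 LI and 398 SI cells), adventitial FB marked by Pi16 and Dpp4 (516 and 492), CD81 FB marked by Grem1 and Ackr4 (417 and 720), Fgfr2 FB (298 and 254), pericytes (461 and 692), smooth muscle cells (SMC, 358 and 367), interstitial cells of Cajal (ICC, 323 and 53) and immune cells (74 and 54). The remaining cells with at least 5 of 6 general fibroblast markers (6167 and 4052) are called other FB, and the 5 fibroblast groups together (7873 and 5916 cells) are called all fibroblasts. The gates fix the markers of each class, so those markers are no check of its name. Epithelial markers, which the gate of PDGFRAhi FB did not use, summed to 6.45 CPM in LI and 13.4 CPM in SI PDGFRAhi FB, and 3 LI and 36 SI cells passed an epithelial gate in spite of the sort. Intervals are 95% exact intervals that cover counting error only. No test between libraries could be made with 1 library per group, and embryo, graft and library cannot be told apart from the gut segment.

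Nrg1 (chr8:31814551-32884029, minus strand of GRCm38) was most abundant in PDGFRAhi FB, the fibroblasts that lie against the epithelium, in both libraries. It stood at 179 CPM (interval 163 to 196) in LI PDGFRAhi FB and at 68.8 CPM (59.3 to 79.5) in SI PDGFRAhi FB. The next class in both libraries was Fgfr2 FB, at 88.4 CPM (75.0 to 104) in LI and 38.6 CPM (29.4 to 49.8) in SI, below PDGFRAhi FB with no overlap of the intervals within either library. Of the 153 Nrg1 UMIs in LI Fgfr2 FB, 23 were in 1 cell, an unevenness that these intervals do not cover. SMC held 23.2 CPM in LI and 28.2 CPM in SI, and other FB 21.9 and 11.2 CPM, so that these neighbours overlapped in LI and did not in SI. CD81 FB, adventitial FB and pericytes came last among the classes other than ICC and immune cells, at 7.17, 7.99 and 7.52 CPM in LI and at 2.21, 0.446 and 0.711 CPM in SI. The last 2 SI values rest on 2 and 3 UMIs.

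A Nrg1 UMI was found in 36.0% of LI PDGFRAhi FB (31.7 to 40.5) and in 17.1% of SI PDGFRAhi FB (13.5 to 21.1), at a median of 5038 and 6079 UMIs per cell. After each cell was thinned to 2000 UMIs the shares were 20.9% and 8.65%. Free RNA sets a floor to such shares, and pericytes, with a median of 4388 UMIs in LI and 4911 in SI, had a Nrg1 UMI in 2.60% and 0.433% of cells. Expressed against the other fibroblasts of its own library, Nrg1 in PDGFRAhi FB was 7.86-fold higher in LI (178.7 against 21.86 CPM, log2 2.98, interval 2.82 to 3.13) and 6.45-fold higher in SI (68.81 against 9.82 CPM, log2 2.69, 2.44 to 2.94). Log2 ratios here and below carry a pseudocount of 1 CPM. In the same comparison 5.63% of the 11403 genes were at least 2-fold higher in LI and 6.86% in SI, 6.47% and 6.83% were as much lower, and the median over all genes was 0.11 and 0.19 on the log2 scale. Of the 6 genes, Nrg1 and Hgf were at least 2-fold higher in LI PDGFRAhi FB, and Nrg1 alone in SI, and none was 2-fold lower in either. The gate had no gap at its edge, since 205 LI and 99 SI cells carried exactly the 4 markers that it required, and 326 and 187 carried 1 fewer. The edge of the CD81 FB gate was weaker, with 475 LI and 719 SI cells at the required 3 markers, 73 and 220 above it and 1589 and 1492 with 1 fewer.

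**Figure D1:**
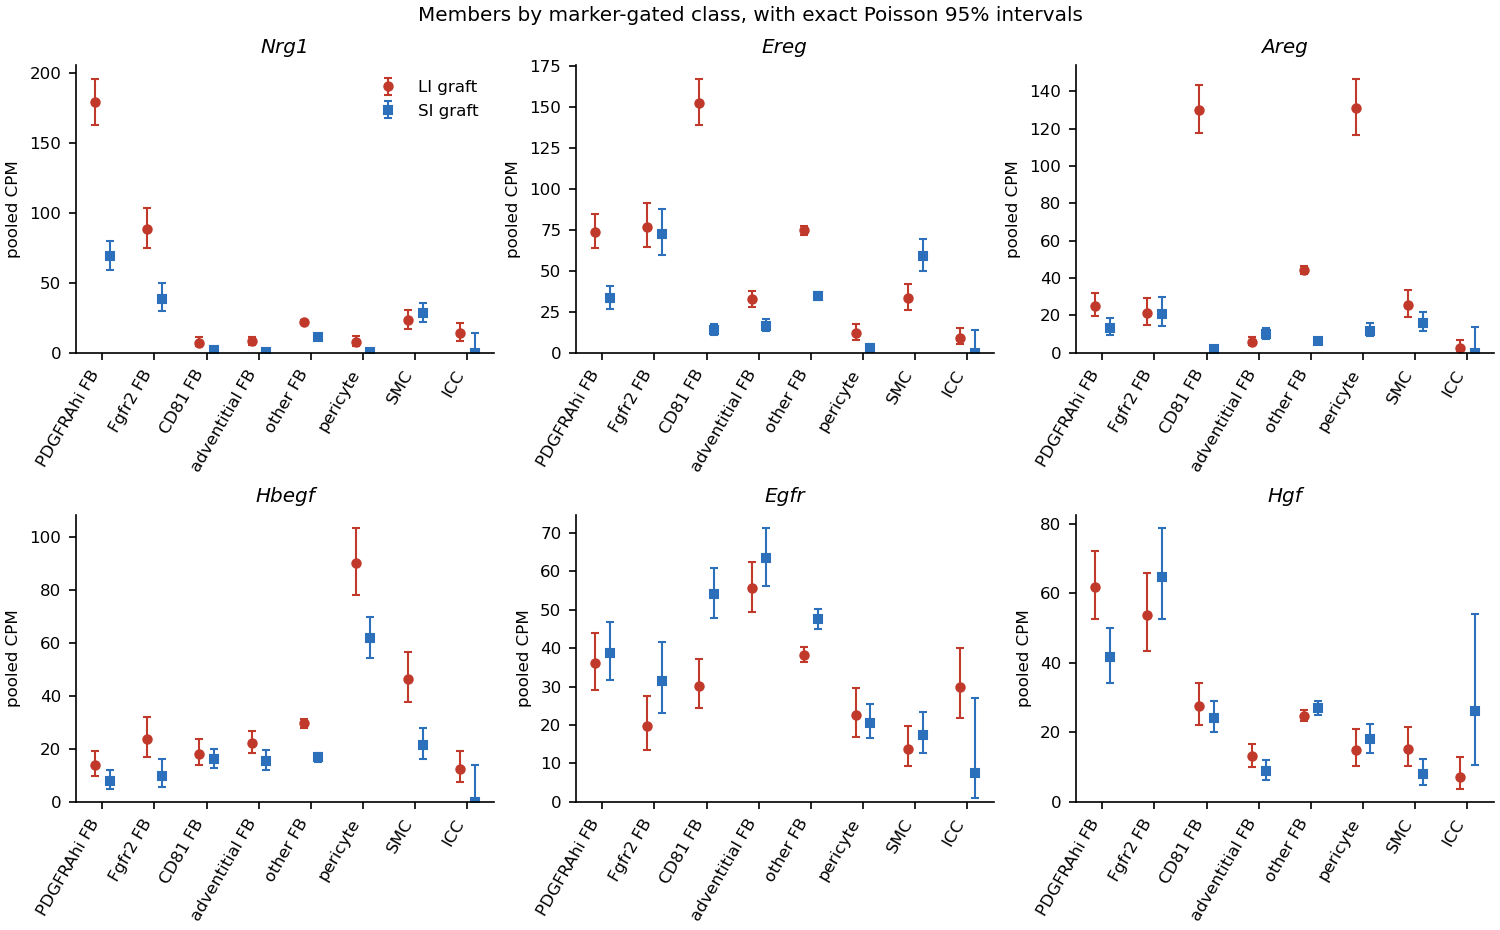
Pooled level of each of the 6 genes (CPM, y axis, its own scale in each panel) in the marker-gated cell classes (x axis) of the LI graft and SI graft library. Points are the pooled values and bars are 95% exact Poisson intervals; Nrg1 is highest in PDGFRAhi FB in both libraries (179 and 68.8 CPM), while Areg is high in LI CD81 FB and pericytes (130 and 131 CPM) and low in the same SI classes (1.81 and 11.8 CPM).

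Within PDGFRAhi FB, Nrg1 was compared between cells with and without UMIs of Cd9 and Thbd, surface proteins by which colonic PDGFRAhi FB can be divided. In LI, cells with neither gene had the highest Nrg1 level, 258 CPM (226 to 294, 166 cells), and cells with both the lowest, 84.6 CPM (58.9 to 118, 71 cells). Cells with Cd9 only held 182 CPM (150 to 218, 98 cells), and cells with Thbd only 117 CPM (92.3 to 145, 125 cells). The 4 SI groups lay between 59.7 and 72.8 CPM with overlapping intervals. Hgf in LI differed along Cd9 and Thbd too, with 91.6 CPM in cells with Cd9 only, 73.5 CPM in cells with neither, 33.9 CPM in cells with Thbd only and 29.0 CPM in cells with both. Presence of Cd9 and Thbd was scored after thinning to 2000 UMIs, which left out shallower cells, and cells without a UMI of a gene may still express it at this depth.

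Immediate early and stress genes, a list of 13 that includes Fos, Jun and Egr1 and rises during tissue dissociation, took a median of 2.95% of UMIs in LI PDGFRAhi FB and 0.616% in SI PDGFRAhi FB. When PDGFRAhi FB were ranked by that share and cut into 3 equal groups, Nrg1 in LI was 210 CPM in the lowest group (181 to 244), 178 CPM in the middle and 148 CPM in the highest (123 to 176). The SI values were 95.8, 64.0 and 51.2 CPM in the same order. The lowest and highest groups did not overlap in either library, and the middle and highest did. The groups are not matched between libraries, since the mean share was 0.664%, 2.94% and 5.62% in LI and 0.097%, 0.812% and 3.0% in SI. Over all fibroblasts Nrg1 showed no such order in LI (30.2, 28.7 and 31.0 CPM) and fell from group to group in SI (25.9, 10.6 and 6.76 CPM), and the intervals of the libraries overlapped in the lowest group (27.7 to 32.9 in LI and 23.0 to 28.9 in SI). The mix of classes was not held fixed across these groups. In SI the median share was 0.616% in PDGFRAhi FB, 2.78% in adventitial FB and 3.12% in CD81 FB. In LI it was 2.95%, 1.79% and 2.33%. The part of dissociation in the levels was not tested.

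**Figure D2:**
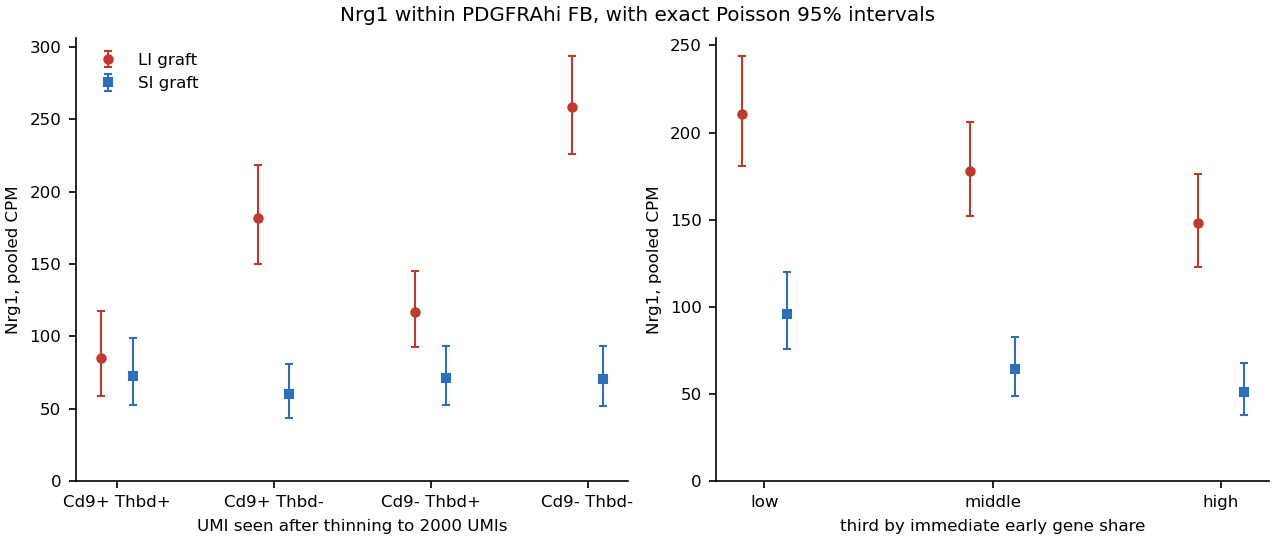
Nrg1 level (CPM, y axis) in PDGFRAhi FB of the LI graft and SI graft library, split by UMIs of Cd9 and Thbd and by the share of immediate early gene UMIs (3 equal groups). Points are pooled values and bars are 95% exact Poisson intervals. In the split by Cd9 and Thbd, LI cells with neither reach 258 CPM while the SI groups stay between 59.7 and 72.8 CPM.

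Between the libraries, Nrg1 was higher in LI in each of the 5 fibroblast groups. Over all fibroblasts it was 29.9 CPM in LI and 13.8 CPM in SI, a log2 ratio of 1.06 (0.93 to 1.20). In the fibroblasts with the least immediate early RNA, described with those genes, the libraries were closer, at 30.2 and 25.9 CPM. That group was not matched for class between the libraries. In PDGFRAhi FB alone, the lowest groups held 210 CPM in LI and 95.8 CPM in SI. The ratio was 1.36 (1.12 to 1.61) in PDGFRAhi FB, 1.17 (0.74 to 1.62) in Fgfr2 FB, 0.91 (0.73 to 1.09) in other FB and 1.34 (0.48 to 2.16) in CD81 FB, where 17 of the 22 LI UMIs were in cluster 9, described below, and the 311 LI cells outside it held 2.24 CPM against 2.21 CPM in SI. In adventitial FB, where SI held 2 UMIs, it was 2.64 (1.68 to 3.15). SMC went the other way by a margin within counting error (log2 -0.27, -0.80 to 0.26). In ICC, LI held 13.7 CPM from 21 UMIs and SI held 0 UMIs, for which the exact interval reaches 13.8 CPM in 53 cells, so no difference was detectable there at this depth. Nrg1 in fibroblasts was 30.4 CPM in LI and 11.0 CPM in SI among female cells (log2 1.39, 1.20 to 1.58), and 29.0 and 19.2 CPM among male cells (log2 0.58, 0.31 to 0.84). The male difference was small outside a few cells: 91 of the 206 male LI UMIs were in 23 PDGFRAhi FB, male other FB held 18.0 CPM in LI and 17.2 CPM in SI, and male LI fibroblasts outside cluster 9, described below, held 19.7 CPM. In PDGFRAhi FB, 23 male LI cells stood apart at 672 CPM (541 to 825) against 142 CPM in 431 female LI cells; the SI values were 112 CPM in male and 46.2 CPM in female cells.

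Amphiregulin and epiregulin are encoded next to each other. In GENCODE vM21 on GRCm38 (mm10), Ereg spans chr5:91074622-91093646 and Areg chr5:91139599-91148432, both on the plus strand and 45.95 kb apart, between Epgn (epigen, chr5:91027464-91035215) and Btc (betacellulin, chr5:91357261-91402994, minus strand), so that 4 EGF-family ligands lie within 375.5 kb. The RefSeq promoter table (GRCm38.p6) had entries for 3 of the 6 genes: Areg, Egfr and Hgf. The Areg promoter is printed because Areg differed most between the libraries. These are the 250 bases before its start site, chr5:91139349-91139598, plus strand, with 2 motifs in capitals.
Areg promoter: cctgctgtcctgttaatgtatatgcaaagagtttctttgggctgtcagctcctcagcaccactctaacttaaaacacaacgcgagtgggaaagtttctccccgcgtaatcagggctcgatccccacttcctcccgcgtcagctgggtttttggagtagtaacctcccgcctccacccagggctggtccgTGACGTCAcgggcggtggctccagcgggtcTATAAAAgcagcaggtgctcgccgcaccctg
The first motif is the cAMP response element TGACGTCA, 61 to 54 bases before the start, which occurs on either strand in 1.55% of 32851 promoter windows of this length. The second is the TATA box TATAAAA, 31 to 25 bases before the start, which 4.98% of the windows hold. The AP-1 motif TGANTCA, found in 6.75% of the windows, had no match there, and none of the 3 motifs matched the Egfr, Hgf, Epgn or Btc windows. The GC content of the Areg window was 57.2%, against a median of 52.4% over all windows.

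Areg and Ereg were both higher in LI than in SI fibroblasts. Areg stood at 43.9 CPM in LI and 7.21 CPM in SI, a log2 ratio of 2.45 (2.29 to 2.61). Ereg stood at 75.1 and 31.2 CPM, a log2 ratio of 1.24 (1.15 to 1.33). With Nrg1, 3 of the 6 genes were thus at least 2-fold higher in LI, where 2.23% of all genes tested were, and none was 2-fold lower, where 1.81% were. The median log2 ratio over all genes was -0.02.

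By class, the genes of the 6 that were at least 2-fold higher in LI were Nrg1 and Ereg in PDGFRAhi FB (background of all genes 4.13% higher and 4.71% lower), Nrg1 in adventitial FB (4.19% and 2.98%), and Nrg1, Ereg and Areg in CD81 FB (4.16% and 2.9%). They were Nrg1 and Hbegf in Fgfr2 FB (5.17% and 5.24%), Ereg and Areg in other FB (2.2% and 1.85%), Nrg1, Ereg and Areg in pericytes (2.77% and 2.74%), and Hbegf in SMC (4.36% and 4.06%). None of the 6 was 2-fold lower in LI in any of these 7 classes. Some of these rest on few cells: outside cluster 9, described below, LI CD81 FB held 2.24 CPM of Nrg1 against 2.21 CPM in SI, and 16 of the 27 LI pericyte UMIs of Ereg were in 1 cell. Without the 10 richest cells of each library LI pericytes held 0 UMIs of Ereg and 0.906 CPM of Nrg1, and SI pericytes 0 UMIs of both. Hbegf in Fgfr2 FB rests on 41 LI and 15 SI UMIs (log2 1.19, 0.37 to 2.05), and Nrg1 in adventitial FB on 41 LI and 2 SI UMIs.

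Areg and Ereg in LI reached their highest fibroblast level in CD81 FB, fibroblasts known for the BMP antagonist Grem1. Areg was 130 CPM (117 to 143) there and 1.81 CPM (0.828 to 3.44) in SI CD81 FB, and Ereg was 152 CPM (139 to 167) and 13.7 CPM (10.6 to 17.4). Few cells carried these UMIs: Areg was seen in 7.43% of LI CD81 FB and Ereg in 14.6%, and the 10 richest cells held 86.7% and 61.1% of the UMIs. In Fgfr2 FB the libraries lay close together, with Areg at 21.4 and 20.9 CPM and Ereg at 76.8 and 72.6 CPM. In PDGFRAhi FB, LI held 25.0 CPM of Areg and SI 13.4 CPM, and Ereg was at 73.6 and 33.1 CPM. Adventitial FB had more Areg in SI (9.80 CPM, 44 UMIs) than in LI (5.85 CPM, 30 UMIs; log2 -0.66, -1.28 to -0.04), and SMC had more Ereg in SI (58.8 CPM, 49.7 to 69.0) than in LI (33.2 CPM, 25.9 to 41.9). ICC and pericytes were the lowest classes for Ereg, ICC at 9.13 CPM in LI with no UMI in SI, and pericytes at 11.9 CPM in LI and 2.84 CPM in SI, with a UMI in 1.52% and 1.01% of cells at a median of 4388 and 4911 UMIs. For Areg, LI pericytes were level with CD81 FB at 131 CPM (116 to 147), whereas SI pericytes held 11.8 CPM.

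**Figure D3:**
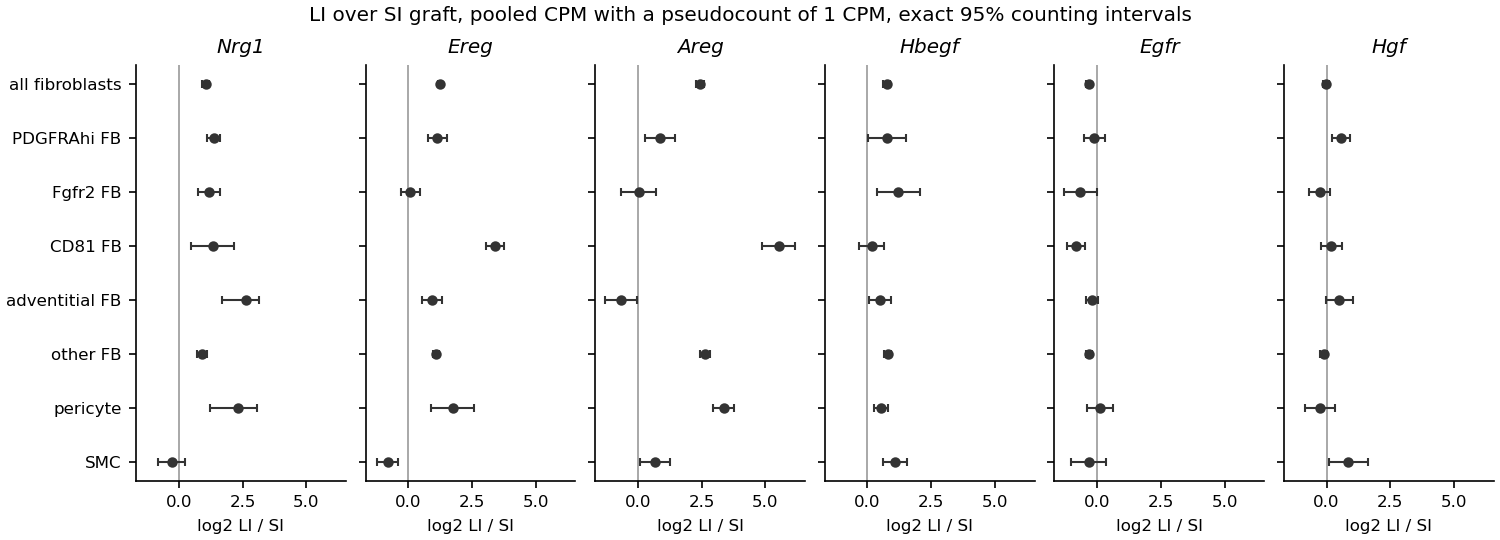
Log2 ratio of LI graft over SI graft level for each of the 6 genes (x axis, pseudocount of 1 CPM) in all fibroblasts and in 7 cell classes (y axis). Bars are 95% intervals found by splitting the UMIs in an exact binomial, and cover counting error only; over all fibroblasts Areg is at 2.45, Ereg at 1.24, Nrg1 at 1.06, Hbegf at 0.76, Hgf at -0.01 and Egfr at -0.33.

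Most of the LI excess of Areg and Ereg in fibroblasts lay in 1 cluster. Clusters were made without the 6 genes and their pathway lists, and LI cluster 9, chosen here after its Areg and Ereg levels were seen, held 639 cells led by Grem1, which is also a marker of the CD81 FB gate, Ttyh1, Il11, Alpl and H2-Q6. It held 433 CPM of Areg (414 to 452) and 518 CPM of Ereg (497 to 539). It thus contributed 68.6% of the Areg and 56.0% of the Ereg UMIs of the LI library. Areg was seen in 20.7% of its cells and Ereg in 34.4%, at a median of 7058 UMIs per cell. The neighbouring ligand genes were also higher there than in all other LI cells: Btc was 50.9 CPM inside and 2.75 CPM outside, and Epgn 4.15 CPM (19 UMIs) inside and 0.177 CPM (10 UMIs) outside. Hbegf was lower inside (10.7 CPM) than outside (34.7 CPM), and Nrg1 (47.2 and 27.7 CPM), Egfr (46.5 and 35.9 CPM) and Hgf (40.6 and 24.4 CPM) were higher inside by less than 2-fold.

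Outside cluster 9, LI fibroblasts held 8.93 CPM of Areg (8.10 to 9.83) and 34.8 CPM of Ereg (33.1 to 36.5), against 7.21 and 31.2 CPM in SI. The log2 ratios without it were 0.27 for Areg and 0.15 for Ereg, while that of Nrg1 was 1.02 and that of Hbegf 0.84. Cluster 9 was chosen for its Areg and Ereg, and no cells were removed from SI. A fall of the Areg and Ereg ratios was thus fixed by the choice, and only its size is described. In CD81 FB the 106 cells in cluster 9 held 454 CPM of Areg and 501 CPM of Ereg, and the 311 cells outside it 8.95 and 21.9 CPM. Epithelial markers were near 0 in cluster 9, with a summed level of 2.40 CPM and 4 of 7 detected, and immune markers summed to 33.9 CPM with 6 of 8 detected. Of its cells, 13.0% were among the 1071 LI barcodes with the highest doublet scores, against 9.26% of all LI barcodes. By its mean profile over 1029 variable genes, the SI cluster most like it was cluster 8 (Pearson r 0.91, a description), where Areg was 8.91 CPM and Ereg 50.6 CPM. SI clusters 3 and 4 followed closely (r 0.893 and 0.886), so no SI cluster was a clear match. In SI the highest Ereg level of a stromal cluster was 151 CPM (132 to 172), in cluster 13, SMC led by Npnt and Hhip.

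**Figure D4:**
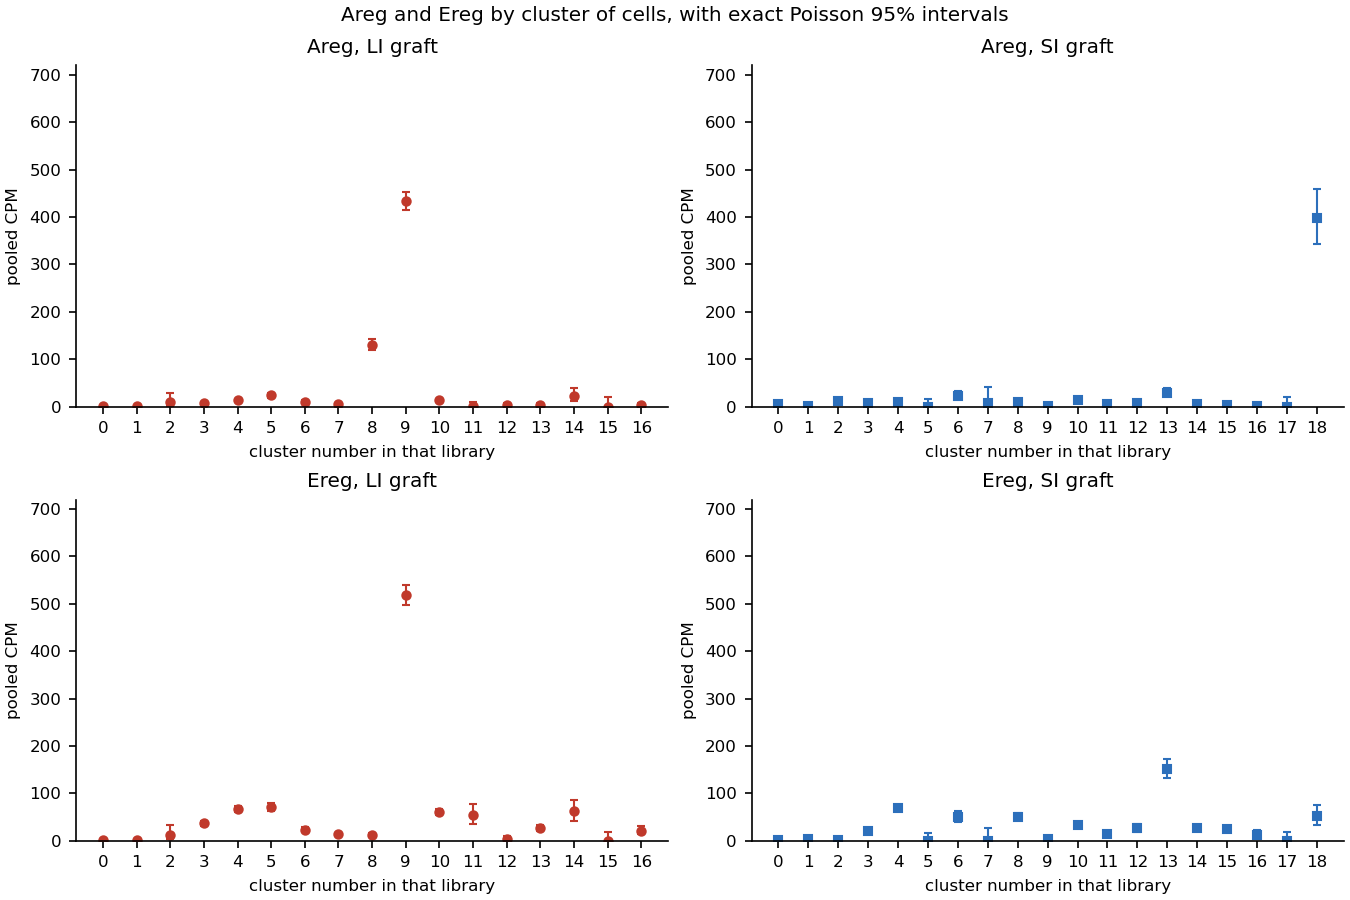
Areg (top) and Ereg (bottom) level (CPM, y axis, same scale in all panels) in each cluster (x axis, numbered separately in each library) of the LI graft (left) and SI graft (right) library. Points are pooled values and bars are 95% exact Poisson intervals; LI cluster 9 stands apart at 433 CPM of Areg and 518 CPM of Ereg, followed for Areg by SI cluster 18, an epithelial cluster of 42 cells at 398 CPM, and LI cluster 8, pericytes at 130 CPM.

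Areg and Ereg were counted in the same cells. In LI, 319 cells held an Areg UMI, 1007 an Ereg UMI and 131 both, so that Ereg was found in 41.1% of Areg+ cells and in 9.17% of Areg- cells. Of the 131 cells, 89 were in cluster 9. In SI, 174 cells held Areg, 674 Ereg and 43 both, so that Ereg was found in 24.7% of Areg+ and 8.16% of Areg- cells, and 10 of the 43 were in the epithelial cluster. These pooled shares mix clusters of different levels: within cluster 9 Ereg was found in 67.4% of Areg+ and 25.8% of Areg- cells, and in LI other FB in 44.6% and 9.56%. The shares were 3.33% (1 of 30 cells) and 1.39% in LI pericytes, 58.3% and 29.7% in SI cluster 13, 60% (6 of 10 cells) and 7.62% in SI cluster 14, 44.4% (4 of 9 cells) and 13.1% in SI SMC, 12.9% and 16.5% in SI cluster 4, and 0% (of 3 cells) and 4.88% in SI CD81 FB. Deeper cells hold more UMIs of every gene, and these shares were not thinned. A few cells held much of the Areg RNA: a single LI fibroblast held 184 of the 2248 LI fibroblast UMIs, and without the 10 richest cells of each library LI fibroblasts held 27.7 CPM and SI fibroblasts 4.37 CPM, a log2 ratio of 2.42.

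Cluster 9 was rich in male cells, 50.7% of it against 9.0% of the LI library, and in cells called neither male nor female, 257 of 639 against 1017 of 9873, and the Areg and Ereg levels moved with sex in LI. In LI fibroblasts Areg was 159 CPM in 732 male and 14.6 CPM in 6413 female cells, and Ereg was 220 and 30.5 CPM. Male LI cells lay in few clusters, since clusters 9, 10 and 11 held 324, 408 and 51 of the 889 male LI cells and clusters 0, 2, 3 and 4 held none. In SI fibroblasts Areg was 9.28 CPM in 1360 male and 5.93 CPM in 3452 female cells, and Ereg was 38.1 and 27.2 CPM. Of the 6 genes, Areg and Ereg were at least 2-fold higher in male LI cells, where 3.86% of genes tested were higher and 10.8% lower, and none was in SI, where 1.09% were higher and 0.658% lower. None of the 6 was 2-fold lower in male cells of either library. Male LI fibroblasts outside cluster 9 were lower, at 11.0 CPM of Areg and 53.3 CPM of Ereg, while all 565 male LI cells outside it, pericytes included, held 38.6 CPM of Areg against 7.17 CPM in female cells. Inside cluster 9, the 324 male cells held 491 CPM of Areg and 594 CPM of Ereg, and the 58 female cells 670 CPM of Areg (292 UMIs in 10 cells) and 172 CPM of Ereg. The 257 cells called neither held 296 CPM of Areg and 500 CPM of Ereg (881 of the 2370 UMIs). LI cluster 10 held 45.9% of the male LI cells and had 13.5 CPM of Areg and 60.4 CPM of Ereg. Male and female donor cells come from different embryos, so sex and embryo cannot be told apart.

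Within female fibroblasts alone, the LI over SI log2 ratio was 1.17 (0.92 to 1.43) for Areg and 0.16 (0.02 to 0.30) for Ereg, and within male fibroblasts it was 3.96 (3.70 to 4.23) and 2.50 (2.35 to 2.65). Of all genes, 2.0% were at least 2-fold higher in LI and 1.58% lower in female cells, and 4.48% and 9.26% in male cells. Nrg1 and Areg passed that fold in female fibroblasts, and Ereg, Areg and Hbegf in male fibroblasts. The female value of Areg rests on few cells, since 184 of its 572 LI UMIs were in 1 cell and female LI fibroblasts outside cluster 9 held 7.24 CPM, less than 2-fold above the 5.93 CPM of SI. LI pericytes repeated the pattern for Areg, with 982 CPM in 28 male cells (149 UMIs) and 11.2 CPM in 386 female cells, and the 27 male LI pericytes outside cluster 9 held 1061 CPM (897 to 1245). The 44 LI pericytes outside cluster 9 called neither male nor female held 577 CPM (481 to 687), from 126 UMIs. SI pericytes held 12.0 CPM in male and 11.4 CPM in female cells. The 10 richest LI pericytes held 77.0% of the Areg UMIs, and 30.8 CPM remained without them.

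**Figure D5:**
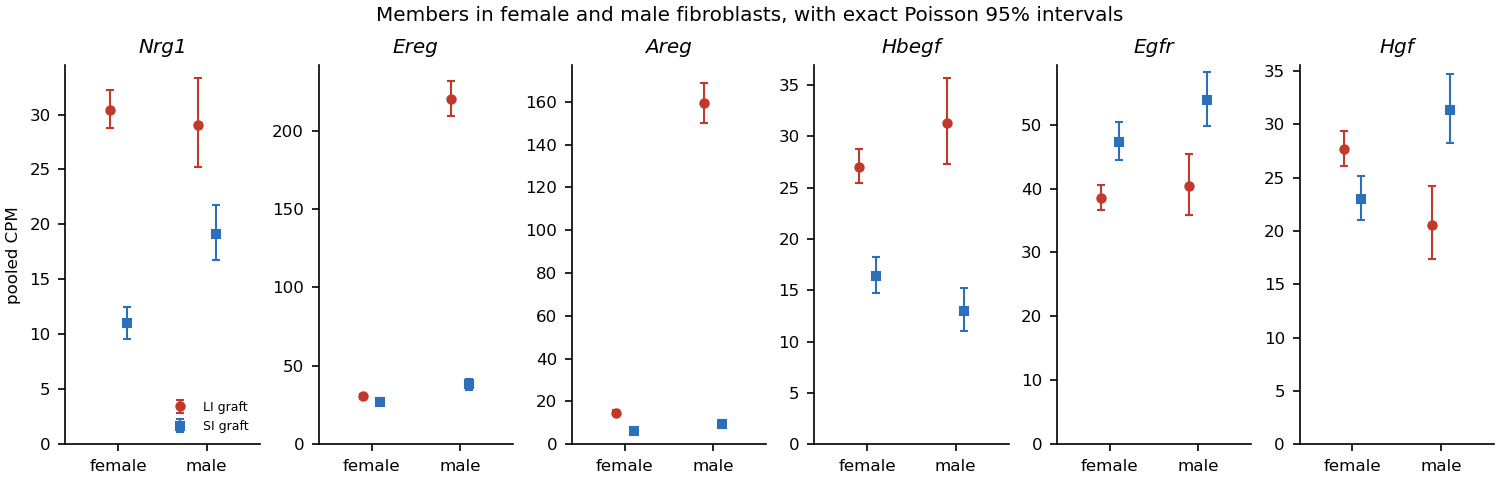
Level of each of the 6 genes (CPM, y axis, its own scale in each panel) in female and male fibroblasts of the LI graft and SI graft library. Points are pooled values and bars are 95% exact Poisson intervals; Areg and Ereg are higher in male than in female LI cells (159 against 14.6 CPM and 220 against 30.5 CPM), and in SI both genes differ by less than 2-fold.

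Hbegf (chr18:36504927-36515805, minus strand), the gene of an EGFR and ERBB4 ligand, was highest in pericytes, the mural cells of small vessels, among the classes with at least 50 cells. It was 90.2 CPM (78.3 to 104) in LI pericytes and 61.8 CPM (54.5 to 69.8) in SI pericytes, with a UMI in 27.8% and 24.4% of cells. SMC came next at 46.5 CPM (37.7 to 56.6) in LI and 21.4 CPM (16.1 to 28.0) in SI, and LI immune cells were at 54.5 CPM (36.8 to 77.8), overlapping LI SMC. All fibroblasts held 27.2 CPM in LI and 15.7 CPM in SI. Among fibroblast groups PDGFRAhi FB were lowest (14.0 CPM in LI and 7.81 CPM in SI) and other FB highest (29.7 and 16.8 CPM) in both libraries. Each overlapped the group next to it within counting error. Next to the lowest were LI CD81 FB at 18.2 CPM and SI Fgfr2 FB at 9.81 CPM. Next to the highest were LI Fgfr2 FB at 23.7 CPM and SI CD81 FB at 16.1 CPM. Pericytes stood above all fibroblasts by 1.69 on the log2 scale in LI (1.48 to 1.90) and by 1.91 in SI (1.70 to 2.12). Of all genes, 8.78% were at least 2-fold higher in pericytes in LI and 8.3% in SI, and 11.1% and 11.2% were as much lower. Of the 6 genes, Hbegf passed in both libraries and Areg in LI (1.56, against 0.65 in SI), while Nrg1 and Ereg were 2-fold lower in both and Egfr in SI (-1.21, against -0.76 in LI). The LI call of Areg rests on few cells. Without the 10 richest cells of each group, LI pericytes held 30.8 CPM of Areg and LI fibroblasts 27.7 CPM. Against SI, LI was higher for Hbegf by 0.76 (0.63 to 0.89) in fibroblasts, by 0.54 (0.27 to 0.80) in pericytes and by 1.08 (0.60 to 1.57) in SMC, and CD81 FB differed within counting error (0.17, -0.32 to 0.65).

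Hbegf moved with immediate early gene RNA. From the lowest to the highest of the 3 groups of fibroblasts ranked by that RNA, it was 17.6, 34.7 and 29.4 CPM in LI and 5.02, 17.1 and 23.4 CPM in SI. In pericytes it was 32.9, 113 and 126 CPM in LI and 40.0, 61.6 and 94.6 CPM in SI. Hbegf was thus lowest in the cells with the least immediate early RNA in each case. Ereg followed in SI fibroblasts (15.1, 39.7 and 36.1 CPM), while in LI the groups held 77.3, 88.9 and 55.6 CPM. Areg fell from 57.7 to 43.5 and 28.0 CPM in LI fibroblasts and was 5.87, 7.28 and 8.30 CPM in SI. Egfr was 44.9, 40.1 and 30.04 CPM in LI fibroblasts and 50.1, 48.8 and 48.1 CPM in SI, and its intervals overlapped between the libraries in the lowest group (41.8 to 48.1 and 46.2 to 54.3). Hgf was 21.0, 24.8 and 35.7 CPM in LI, with no overlap of the lowest and highest groups, and 24.4, 29.5 and 26.5 CPM in SI.

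Egfr (chr11:16752203-16918158, plus strand), the receptor for amphiregulin, epiregulin and HB-EGF, was spread over all fibroblast groups and was highest in adventitial FB. These held 55.7 CPM (49.5 to 62.6) in LI and 63.5 CPM (56.3 to 71.3) in SI, with a UMI in 33.7% and 40.5% of cells and, after thinning, in 9.80% and 12.2%. In LI, other FB followed at 38.3 CPM, PDGFRAhi FB at 36.0 CPM and CD81 FB at 30.3 CPM, with intervals that overlapped among all 3. In SI, CD81 FB at 54.1 CPM (47.9 to 61.0) overlapped adventitial FB, and other FB and PDGFRAhi FB held 47.5 and 38.7 CPM. Fgfr2 FB were the lowest fibroblast group, at 19.6 and 31.4 CPM, and pericytes (22.6 and 20.6 CPM) and SMC (13.8 and 17.5 CPM) were also low. Over all fibroblasts Egfr was 38.8 CPM in LI and 48.9 CPM in SI, a log2 ratio of -0.33 (-0.42 to -0.24). The lower LI level was clearest in CD81 FB (-0.82, -1.16 to -0.48) and was within counting error in PDGFRAhi FB (-0.10, -0.51 to 0.30) and adventitial FB (-0.18, -0.42 to 0.05).

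Hgf (chr5:16553495-16620152, plus strand), the mesenchymal ligand of MET, was highest in PDGFRAhi FB and Fgfr2 FB. In LI these held 61.8 CPM (52.7 to 72.1) and 53.7 CPM (43.4 to 65.8), and in SI 41.7 CPM (34.3 to 50.1) and 64.8 CPM (52.6 to 78.9), so that the order was open in LI and Fgfr2 FB led in SI. An Hgf UMI was found in 23.4% and 21.8% of these cells in LI and in 21.4% and 27.6% in SI. CD81 FB held 27.7 and 24.1 CPM and other FB 24.8 and 26.9 CPM. Adventitial FB were lowest among fibroblasts at 13.1 and 8.91 CPM, the reverse of Egfr. Over all fibroblasts Hgf was 26.7 CPM in LI and 27.0 CPM in SI, a log2 ratio of -0.01 (-0.13 to 0.10). Within classes, PDGFRAhi FB were higher in LI (0.56, 0.21 to 0.91), and Fgfr2 FB differed within counting error (-0.27, -0.68 to 0.15). Hgf was higher in LI among female cells (27.7 and 23.0 CPM) and lower among male cells (20.6 and 31.3 CPM).

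The other genes of these pathways were taken from fixed lists and counted in the same way. Of 7 other EGF-family ligands, 2 reached 10 CPM in a class, Btc (17.0 CPM in SI Fgfr2 FB) and Nrg2 (45.0 CPM in SI ICC). Of the 3 other ERBB receptors, only Erbb2 did (13.7 CPM in LI PDGFRAhi FB). Below that level, Erbb3, a receptor for neuregulin 1, peaked at 5.45 CPM in LI immune cells, and Erbb4 had no UMI in any of these classes. All 4 genes of ligand shedding reached 10 CPM, with highest levels of 67.3 CPM for Adam10, in SI PDGFRAhi FB, 48.4 CPM for Adam17, in SI Fgfr2 FB, 45.7 CPM for Rhbdf1, in SI pericytes, and 20.8 CPM for Rhbdf2, in LI Fgfr2 FB. Adam10 and Adam17 are sheddases and the iRhoms Rhbdf1 and Rhbdf2 serve ADAM17. No gene of these 3 lists differed by 2-fold between LI and SI fibroblasts.

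All 9 feedback inhibitors of receptor signalling reached 10 CPM, and 1 of them was at least 2-fold higher in LI fibroblasts: Errfi1, which binds and inhibits EGFR, at 194 CPM in LI and 85.1 CPM in SI (log2 1.18, 1.12 to 1.23). The others with the highest levels were Spry4 (232 CPM), Spry1 (211 CPM) and Lrig1 (184 CPM), each in ICC. Of 10 genes of the HGF and MSP system, 5 reached 10 CPM. The HGF receptor Met was at most 13.5 CPM, in SMC, Plat at most 247 CPM, in adventitial FB, Spint2 at most 125 CPM, in ICC, and Mst1r at most 25.4 CPM, in immune cells. The immediate early genes with the highest levels were Fos (8108 CPM), Jun (7765 CPM), Junb (5409 CPM) and Egr1 (3733 CPM), each in LI Fgfr2 FB. None of the HGF and MSP list and none of the 13 immediate early genes differed by 2-fold between LI and SI fibroblasts, where 2.23% of all genes were higher in LI and 1.81% lower.

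Across the 18 class by library values, the genes most like each of the 6 were ranked by Pearson correlation of log2 level among 11303 genes, as a description of values that share libraries and depth. For Nrg1 they were Wnt4 (r 0.88), Enho, Pcdh9, Wasf1 and Dnaic1, and for Hgf Msc (r 0.84), Stox2, Ptk7, Ranbp10 and Ado. For Ereg they were Zfp560 (r 0.87), Stxbp6, Sphk1, Rbms3 and Cyr61, and for Areg Apex2 (r 0.83), Hectd2, Mafk, Midn and Spata1. Hbegf was nearest to Gla (r 0.92), Klhl29, Rassf1, Arntl2 and Cdkn1a, and Egfr to Golt1b (r 0.92), Rab32, Papss2, Gxylt2 and Kdelr2. Among the 6 genes, Nrg1 and Ereg (r 0.71), Areg and Hbegf (r 0.64) and Ereg and Areg (r 0.63) were most alike, and Hbegf and Hgf least (r -0.30).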

How the data were processed

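Single-cell RNA-seq libraries of sorted donor MSC from LI and SI grafts were made with a 10x Genomics 3′ or 5′ kit; which kit served which library is not given in the sources used here. The authors deposited raw UMI counts per gene and barcode, made with Cell Ranger 3.1.0 on mm10 and, per the labels, analysed with Seurat 3; the annotation release is not given in the sources used here. No cell annotation was used. The counts were filtered (500 or more genes, 10% or less mitochondrial UMIs), which left a median of 5288 UMIs in LI and 5682 in SI cells, and summed per class and library to CPM.

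A marker was on in a cell at 2 or more times its pooled level in the library. PDGFRAhi FB needed 4 of 8 markers, adventitial FB 3 of 7, CD81 FB 3 of 6, Fgfr2 FB 3 of 6, pericytes and SMC 4 of 7 and ICC 3 of 5, and cells that passed several gates were left out. Clusters (scanpy 1.11.5, 2000 variable genes, 30 components, resolution 0.8) were an alternative; the 6 genes and the pathway lists were kept out of the variable genes. Doublets were not removed in the main values, since the threshold of Scrublet called 0 LI and 1 SI barcodes. Poisson, binomial and Clopper-Pearson intervals came from scipy 1.17.1 in Python 3.11.15; edgeR 4.0.16 in R 4.3.3 gave TMM factors for an alternative only. Shares of cells were thinned to 2000 UMIs. The LI over SI ratio and its 2-fold call were tested on simulated Poisson counts pooled over all fibroblasts. That simulation had no uneven spread of UMIs between cells and did not cover gates, clusters, thinning or sex calls.

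The 6 genes, lists and comparisons were chosen with earlier results of these data known. Gate thresholds were set on the marker UMIs, not on the 6 genes. From each list, up to 4 genes with the highest level among those that reached 10 CPM in a class of at least 50 cells were named, and for each of the 6 genes the 5 most correlated genes, without gate markers and sex-linked, haemoglobin and mitochondrial genes. Cluster 9 and the alternatives without it and without the richest cells were chosen after seeing the data. Other alternatives were the cell filter, doublet removal, a stricter gate, clusters, averaging, TMM, the pseudocount, sex, the thinning depth, the 10 CPM minimum and the fold.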

Additional observations from a re-analysis of the deposited data

Results flagged for a closer look

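Each of the 6 genes was compared between a class of at least 50 cells and all other cells of its library. In 5 cases the class stood above the other cells in 1 graft and below them in the other. In both grafts this was by at least 0.5 on the log2 scale and beyond counting error. The difference between the grafts was not tested. How many of all genes do so was not counted, so whether 5 cases are many for 6 genes cannot be told. Ereg in CD81 FB was 1.22 above the other cells on the log2 scale in LI and -1.07 in SI, a difference of 2.29. Areg in CD81 FB was at 1.58 in LI and -2.23 in SI, a difference of 3.81. Ereg in SMC went the other way, at -1.07 in LI and 1.11 in SI, a difference of -2.17, and so did Areg in Fgfr2 FB, at -1.13 in LI and 0.88 in SI, a difference of -2.01. Hbegf in immune cells was at 0.72 in LI and -1.88 in SI (3 UMIs), a difference of 2.60. The LI values of Areg and Ereg contain cluster 9 on the side of the class or of the other cells.

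Levels above those of every class of at least 50 cells were found in small classes and removed barcodes, which have no comparison of their own; the small classes are among the other cells of the preceding paragraph. Hbegf reached 176 CPM in 17 LI mesothelial cells (105 to 279) and 237 CPM in 18 SI mesothelial cells (179 to 309), against at most 90.2 and 61.8 CPM in the larger classes. It was 677 CPM in 3 LI epithelial cells, from 10 UMIs of a single cell, and 531 CPM in 36 SI epithelial cells (468 to 601). In SI it was also 366 CPM in 6 endothelial cells, from 17 UMIs, and 205 CPM in 12 kidney tubule cells, from 43 UMIs. Areg was 395 CPM in the 36 SI epithelial cells (341 to 456), which held 32.6% of the SI Areg UMIs, against at most 20.9 CPM in the larger SI classes. Among barcodes that failed the cell filter, Areg was 41.7 CPM in 1721 SI barcodes and Hgf was 73.5 CPM in 1695 LI barcodes, where the highest class of Hgf held 61.8 CPM.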

How the results depend on the processing

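Of 112 values recomputed under an alternative, 67 stayed within the error of the main value, 45 moved and none changed sign where the main value lay beyond its error. The cause of the moves was not tested. LI over SI log2 ratios in fibroblasts from mean per-cell CPM were 1.26 for Nrg1, 1.10 for Ereg, 2.27 for Areg, 0.63 for Hbegf and -0.45 for Egfr. A pseudocount of 5 CPM gave 0.89 for Nrg1, 1.15 for Ereg and 2.0 for Areg, and 2.77 in LI and 2.32 in SI for Nrg1 in PDGFRAhi FB over other fibroblasts. In female cells the ratios were 1.39 for Nrg1, 0.16 for Ereg, 1.17 for Areg and 0.26 for Hgf, and in male cells 0.58, 2.50, 3.96 and -0.58, with 1.21 for Hbegf. Nrg1 in PDGFRAhi FB was 2.56 in LI and 2.31 in SI for female and 5.26 and 3.04 for male cells. Clusters in place of gates gave 1.41 for Ereg and 3.34 for Nrg1 in LI PDGFRAhi FB, which the stricter gate put at 2.76 and TMM factors at 2.80. Without cluster 9, chosen for these 2 genes and removed from LI only, Ereg was 0.15 and Areg 0.27. Without the 10 richest cells Nrg1 was 1.23, and 2.79 in LI PDGFRAhi FB. Thinned to 1000 UMIs, the share of LI and SI fibroblasts with a UMI was 2.71% and 1.15% for Nrg1, 3.82% and 2.55% for Ereg, 1.39% and 0.59% for Areg, 2.17% and 1.40% for Hbegf, 3.59% and 4.89% for Egfr and 2.84% and 2.72% for Hgf. A 1.5-fold limit named 3 pathway genes higher in LI and 1 in SI, against 1 and 0 at 2-fold. No paired analysis was possible because each group is 1 library and the results come from no test. Depth limits the small classes most, such as the 53 SI ICC.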
